A study of Mus musculus with 9 samples.

Results

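The genes described here encode 7 transcription factors of the oocyte, namely Nobox, Figla, Lhx8, Sohlh1, Sohlh2, Taf4b and Tbpl2. They were chosen by name, and a gene was measured where the array had a row annotated to that gene alone. All 7 had exactly 1 such row, among 19938 genes with a row of their own. The study read the RNA of 9 single metaphase II oocytes, each on its own Affymetrix Mouse Gene 1.0 ST array. They came from unmated ICR females 2 months old that had received PMSG (10 IU) and, 46 hours later, hCG (10 IU). Of these, 3 oocytes were lysed in NuGEN direct lysis buffer and amplified as crude lysate, 3 gave RNA purified with the Arcturus PicoPure kit and 3 gave RNA purified with the Qiagen RNeasy Mini kit. NuGEN Ovation One-Direct was used to amplify all of them. Each condition drew on 3 mice, with 1 to 3 cells per mouse. Since no label ties an oocyte to a mouse, and oocytes of a group may be from the same animal, p-values reflect only how these oocytes vary.

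These factors build the gene programme of the growing egg. SOHLH1 and SOHLH2 are basic helix-loop-helix proteins of germ cells that act at the start of follicle growth, together with the LIM homeodomain protein LHX8 and the homeodomain protein NOBOX. FIGLA, also a basic helix-loop-helix protein, activates the zona pellucida genes as a heterodimer with an E protein. TAF4B is a gonad-enriched subunit of the general initiation factor TFIID, and TBPL2 is an oocyte form of the TATA-binding protein that acts with TFIIA in growing oocytes. By metaphase II the mouse oocyte makes almost no new RNA, so an array reads the messages that were stored or left over from growth.

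SOHLH and FIGLA proteins bind the E-box, CANNTG. The 250 bases before the annotated start (RefSeq, GRCm38.p6) are shown for the 3 factor genes that lay above background on all 9 arrays (Sohlh1, Nobox and Lhx8) and for the 1 that lay above it on none (Tbpl2). Capitals mark each E-box. Letters run in the direction of the gene.
Sohlh1, chr2:25847249-25847498, minus strand: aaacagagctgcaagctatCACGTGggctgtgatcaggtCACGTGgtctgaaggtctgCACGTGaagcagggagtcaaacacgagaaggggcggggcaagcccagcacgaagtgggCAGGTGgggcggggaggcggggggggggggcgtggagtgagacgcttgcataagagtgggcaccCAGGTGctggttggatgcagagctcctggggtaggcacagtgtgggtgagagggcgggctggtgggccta
Nobox, chr6:43309555-43309804, minus strand: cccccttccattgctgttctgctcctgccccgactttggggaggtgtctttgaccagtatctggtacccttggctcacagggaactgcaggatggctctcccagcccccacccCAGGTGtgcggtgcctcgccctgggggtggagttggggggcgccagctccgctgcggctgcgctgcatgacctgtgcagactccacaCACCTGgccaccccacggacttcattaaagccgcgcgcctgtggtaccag
Lhx8, chr3:154330561-154330810, minus strand: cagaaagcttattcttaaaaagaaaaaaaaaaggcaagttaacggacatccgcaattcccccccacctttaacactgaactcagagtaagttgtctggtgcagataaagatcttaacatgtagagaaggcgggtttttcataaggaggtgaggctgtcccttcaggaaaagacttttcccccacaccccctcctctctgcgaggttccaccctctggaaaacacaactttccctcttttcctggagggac
Tbpl2, chr2:24096596-24096845, minus strand: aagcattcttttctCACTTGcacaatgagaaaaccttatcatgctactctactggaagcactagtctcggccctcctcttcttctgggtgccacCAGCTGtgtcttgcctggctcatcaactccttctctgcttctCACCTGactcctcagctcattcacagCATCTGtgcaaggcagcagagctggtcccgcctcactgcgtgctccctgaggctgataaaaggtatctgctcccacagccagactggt
Sohlh1 held 5 matches to CANNTG, of which 3 were CACGTG, at 231, 211 and 192 bases before the start, and 2 were CAGGTG. Nobox held 2 matches, which were CAGGTG on opposite strands, Tbpl2 held 4 and Lhx8 held 0. CANNTG reads the same on both strands, and CACGTG and CAGGTG are forms of it. Of 32851 promoters of this length, 66.2% held CANNTG at least once, 17.2% held CAGGTG and 6.0% held CACGTG. Only 20 of them held CACGTG 3 times or more. The homeodomain motifs TAATTG and TAATTA, which NOBOX binds, were searched on both strands and were in none of these 4 windows, against 7.2% and 4.8% of all promoters. The matches describe the sequence and are no record of binding.

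The deposited values are log2 expression values. As background, the 95th percentile of 1231 sensory receptor genes (olfactory, vomeronasal, taste) was taken on every array, which gave 7.19 to 7.48 over the arrays. It was 7.23, 7.29 and 7.26 on the direct lysates, 7.19, 7.26 and 7.25 with PicoPure and 7.41, 7.27 and 7.48 with RNeasy. A gene above the level of an array was called above background there, so counts per preparation also depend on that level. By this limit 3 of the 7 factor genes were above background on all 9 arrays, 3 on some and 1 on none. Of all genes 43.1% were above it on all arrays, 21.8% on some and 35.1% on none, so the factors as a group were not set apart by how many were detected. All 9 oocyte markers checked (Zp3, Gdf9, Bmp15, Ooep, Nlrp5, Npm2, Dppa3, Ddx4 and Dazl) were above background on every array. Of 17 cumulus and granulosa markers 3 (Foxl2, Nr5a1 and Nr5a2) passed this limit on every array, 5 on some and 9 on none, among them Amh, Fshr and Star. Nr5a2, a nuclear receptor gene, was the clearest, with 10.67 ± 0.68 in direct lysates, 10.65 ± 0.22 with PicoPure and 10.02 ± 0.65 with RNeasy (SD, n = 3 each). Foxl2 and Nr5a1 lay nearer the limit, from 7.71 to 8.27 and from 7.62 to 7.86 over all arrays. Whether these signals came from the oocyte itself or from other cells was not tested. Of the 5 on some, Inhba (8.48), Tnfaip6 (8.39) and Ptgs2 (7.56) passed on RNeasy replicate 3 alone, and Ptx3 and Hsd17b1 passed on 2 arrays and 1. Of 9 blood and immune markers 1 (Cd3e) passed it everywhere and 7 on no array. Values for different genes come from different probes and are not set against each other.

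**Figure D1:**
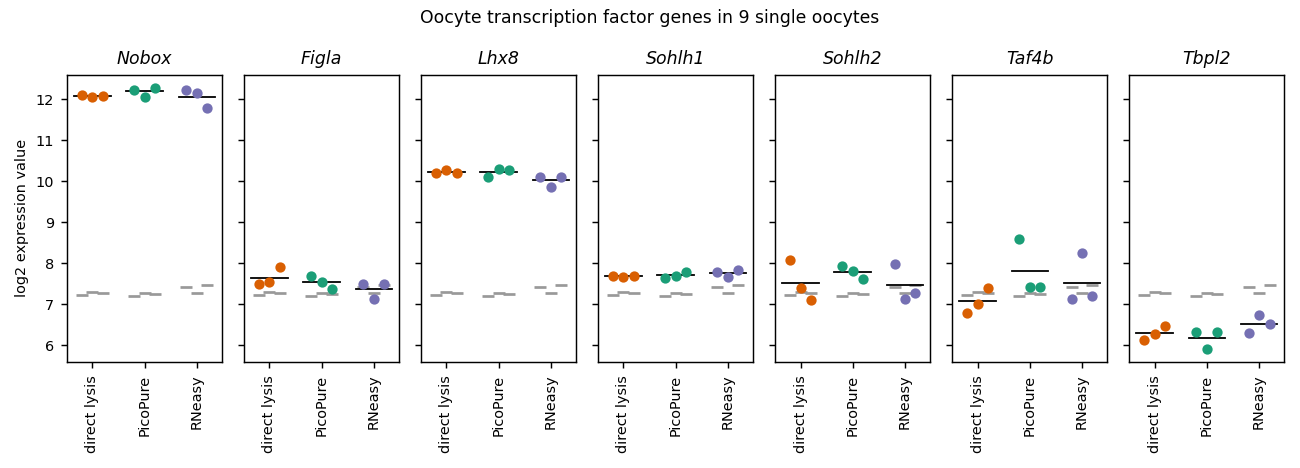
Log2 expression value (vertical axis) of each factor gene in 9 single oocytes, 1 point per oocyte, grouped by preparation (horizontal axis). Black lines are group means and grey dashes the background level of each array. Nobox and Lhx8 lie far above the dashes on all arrays and Tbpl2 lies below them on all. Sohlh1 and Figla lie within 0.65 of them, while Sohlh2 and Taf4b scatter on both sides, with single oocytes up to 0.84 and 1.40 above.

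The homeobox genes were the clear signals. Nobox, whose loss in mice stops follicles at the primordial stage, had 12.11, 12.06 and 12.08 in the direct lysates, against 12.22, 12.06 and 12.28 with PicoPure and 12.22, 12.15 and 11.78 with RNeasy. The groups overlapped, and the lowest oocyte was RNeasy replicate 3, the one with Inhba, Tnfaip6 and Ptgs2 above background; what part that has in its value was not tested. Its level exceeded the background of the same array by 4.30 to 5.03, and 0 of the 1231 receptor genes were higher on any array. Between direct lysis and purified RNA it differed by -0.04 ± 0.10 (SE), or 0.976-fold with a 95% interval of 0.825 to 1.15 (limma, adjusted p = 0.903).

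Lhx8, a LIM homeodomain factor needed for the primordial to primary follicle step, had 10.19, 10.26 and 10.19 in the direct lysates. It had 10.11, 10.31 and 10.27 with PicoPure and 10.10, 9.85 and 10.11 with RNeasy. The value 10.19 was identical on direct lysis replicates 1 and 3. Each direct lysate lay above each RNeasy oocyte, as was the case in either direction for 16.9% of all genes, while PicoPure overlapped both. Direct lysis differed from RNeasy by 0.19 ± 0.09 (SE), 1.14-fold with an interval of 0.986 to 1.33, and this did not pass the test (limma, adjusted p = 0.404). PicoPure differed from RNeasy by 0.21 ± 0.09 (SE) with an adjusted p of 0.643 (limma). Lhx8 exceeded the background by 2.58 to 3.04 on every array.

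The basic helix-loop-helix genes lay near the limit. Sohlh1 had 7.70, 7.65 and 7.70 in the direct lysates, against 7.63, 7.69 and 7.79 with PicoPure and 7.79, 7.66 and 7.83 with RNeasy. It was above background on all 9 arrays, but by only 0.35 to 0.54, and between 19 and 33 receptor genes were higher on each array. At a stricter limit, the receptors' 99th percentile, it was above background on 0 arrays. All 9 values lay within 0.195 of each other, and the direct lysates differed from purified RNA by -0.05 ± 0.06 (SE) (limma, adjusted p = 0.753).

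Its partner Sohlh2 varied more from oocyte to oocyte. It had 8.07, 7.40 and 7.09 in the direct lysates, 7.94, 7.80 and 7.61 with PicoPure and 7.97, 7.14 and 7.28 with RNeasy. It was above background on 2 of 3 direct lysates, on 3 of 3 PicoPure oocytes and on 1 of 3 RNeasy oocytes. RNeasy replicate 3, where Sohlh2 had 7.28, was the array with the highest background level, 7.48. The groups overlapped in every comparison.

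Figla had 7.50, 7.53 and 7.91 in the direct lysates, 7.68, 7.54 and 7.36 with PicoPure and 7.50, 7.12 and 7.50 with RNeasy. It was above background on 8 of 9 arrays, the exception being RNeasy replicate 2, and exceeded it by no more than 0.65. The value 7.50 was identical on 3 arrays of 2 preparations. Equal values on at least 2 arrays were found for 54.9% of all genes. Direct lysis differed from purified RNA by 0.20 ± 0.13 (SE), which did not pass (limma, adjusted p = 0.535).

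Taf4b and Tbpl2, the factor genes of the initiation machinery, lay near or below background on most arrays. Taf4b had 6.79, 7.01 and 7.39 in the direct lysates, against 8.59, 7.42 and 7.43 with PicoPure and 7.12, 8.25 and 7.20 with RNeasy. Only PicoPure replicate 1 and RNeasy replicate 2 stood clear of the background, by 1.40 and 0.98, and the gene was above it on 1 of 3 direct lysates, 3 of 3 PicoPure and 1 of 3 RNeasy oocytes. Each direct lysate lay below each PicoPure oocyte, and 16.6% of all genes showed such a separation in either direction. The difference of -0.75 ± 0.40 (SE) did not pass (limma, adjusted p = 0.499), and it was smallest, -0.36, without PicoPure replicate 1. Against purified RNA as a whole, direct lysis differed by -0.60 ± 0.35 (SE), 0.658-fold with an interval of 0.376 to 1.15 (adjusted p = 0.474).

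Tbpl2 was above background on 0 of 9 arrays. It had 6.13, 6.27 and 6.47 in the direct lysates, 6.32, 5.91 and 6.32 with PicoPure and 6.30, 6.73 and 6.52 with RNeasy. The value 6.32 was identical on PicoPure replicates 1 and 3. Tbpl2 lay below the background of its array by 0.54 to 1.36, and between 188 and 522 of the receptor genes were higher. No difference between preparations is given for it, since no group was above background. Without a detection p-value, a level like that of the receptors shows that the message was not detected by this probe set, not that it is absent.

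No difference between preparations passed the test for any of the 7 genes. In limma, with Benjamini-Hochberg adjustment over 19938 genes and a threshold of 0.05, 0 of 7 passed between direct lysis and purified RNA, where 1.01% of all genes did. Between PicoPure and RNeasy 0 passed, against 0.0602% of all genes. The count was also 0 for direct lysis against PicoPure (0.597% of all genes), for direct lysis against RNeasy (0.436%) and for any difference among the 3 preparations (0.637%). At an unadjusted p under 0.05 the counts were 0 of 7 in each of these comparisons, where 14.2%, 7.98%, 12.3%, 13.4% and 12.8% of all genes passed. At the background shares a count of 0 of 7 is not particular to these genes. The comparisons share arrays and are not independent. The median difference of the 7 genes was -0.05 between direct lysis and purified RNA and 0.16 between PicoPure and RNeasy, where the median of all genes was 0.00 and -0.03. These medians take in Tbpl2 at values below background. The lysis buffer, the column step and possibly the mice differ together between direct lysis and purified RNA, and their parts cannot be told apart.

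**Figure D2:**
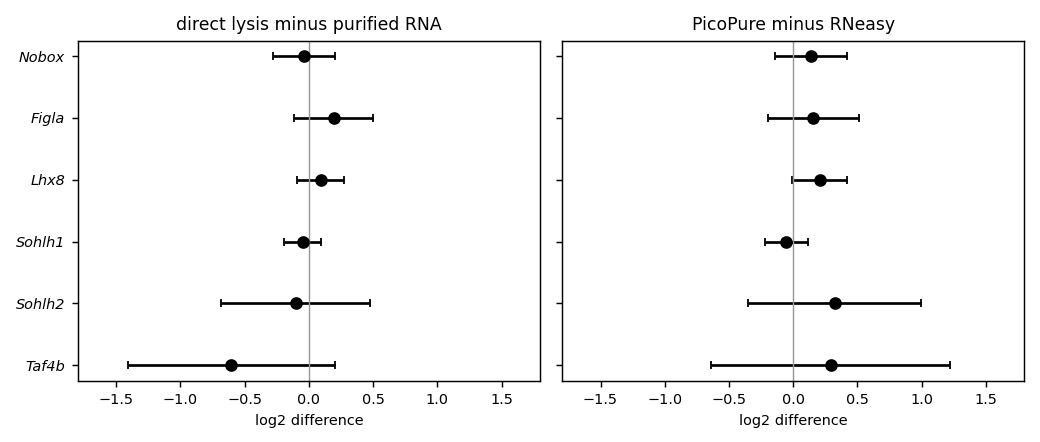
Log2 difference (horizontal axis) of the 6 factor genes above background on at least 1 array, for direct lysis minus purified RNA, left, and PicoPure minus RNeasy, right. Points are limma estimates and bars 95% intervals. All intervals include 0, and they are widest for Taf4b (-1.41 to 0.20 on the left) and narrowest for Sohlh1 (-0.19 to 0.10).

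The precision differed between the genes by the spread of single oocytes within a preparation. The residual SD over 9 arrays (6 degrees of freedom) was 0.07 for Sohlh1, 0.11 for Lhx8, 0.15 for Nobox, 0.20 for Figla, 0.40 for Sohlh2 and 0.56 for Taf4b. The median over all genes was 0.15, and it was 0.19 over the genes above background on all arrays. Taf4b varied more than 93.9% of all genes and Sohlh2 more than 87.0%. Of the genes above background on all arrays, 38.4% had a smaller SD than Nobox, 21.6% a smaller one than Lhx8 and 7.77% a smaller one than Sohlh1. Among all genes these shares were 50.9%, 29.3% and 10.4%. Figla, Sohlh1, Sohlh2 and Taf4b lay near background on most arrays, and their SDs ran from small to large. What part noise near background or differences between cells have in these spreads was not tested.

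Most genes for the general initiation factors among which TAF4B and TBPL2 have their relatives were detected. Of 21 genes for TFIID subunits, TBP family members, TFIIA and TFIIB, 18 were above background on all arrays and 2 (Taf7l and Gtf2a2) on none. The shares of all genes were 43.1% on all arrays and 35.1% on none. Tbp, the general TATA-binding protein gene, had 11.24, 11.44 and 11.34 in the direct lysates, 11.23, 11.36 and 11.35 with PicoPure and 11.15, 11.26 and 11.10 with RNeasy. Taf4, the paralog of Taf4b, had 9.84 ± 0.21 in direct lysates, 10.27 ± 0.20 with PicoPure and 10.15 ± 0.10 with RNeasy (SD, n = 3 each). The other paralog of Tbpl2, Tbpl1, ranged from 8.90 to 9.80 in direct lysates, from 9.94 to 10.11 with PicoPure and from 7.62 to 9.96 with RNeasy. By the limit used, the general forms Tbp and Taf4 were above background on every array, Tbpl2 on none and Taf4b on 5. For Taf4b the count was 8 with the receptors' 90th percentile as the limit and 1 with their 99th. Different probes read these genes, so the counts do not rank their levels.

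Within that list 1 gene fell in direct lysates and 0 rose, against 0.667% of all genes lower and 0.341% higher. Taf13, a small TFIID subunit with a histone fold, had 9.99, 9.91 and 10.70 in the direct lysates, against 11.68, 11.75 and 11.84 with PicoPure and 11.91, 12.03 and 11.70 with RNeasy. Every direct lysate lay below every purified oocyte, and 8.02% of all genes showed such a separation in either direction. The difference from purified RNA was -1.62 ± 0.17 (SE), 0.325-fold (limma, adjusted p = 0.0132). The call was lost in 2 of 15 alternatives, without RNeasy replicate 1 (adjusted p = 0.0548) and with the replicate numbers as a block (0.0644), while the difference stayed between -1.87 and -1.47. Taf13 also passed against PicoPure and against RNeasy singly (adjusted p = 0.0254 and 0.0273), but these calls were lost in 9 and 7 of 15 alternatives. Both were lost with any 1 of the 6 purified oocytes left out and with the block, and that against PicoPure also without direct lysis replicate 1 (0.0556) or 2 (0.0555); the highest adjusted p was 0.107 in each.

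The next genes of the list by the test among preparations did not pass. Taf1, the largest TFIID subunit, had 9.17 ± 0.37 in direct lysates, 10.22 ± 0.21 with PicoPure and 9.43 ± 0.05 with RNeasy (SD, n = 3 each; adjusted p = 0.093 among preparations). Gtf2a1, the large subunit of TFIIA, had 12.47 ± 0.18 in direct lysates, 12.85 ± 0.05 with PicoPure and 12.77 ± 0.04 with RNeasy. Taf2, chosen after its values were seen because its estimate was as large as that of Taf13, had 7.05 ± 0.62 in direct lysates, 9.62 ± 0.28 with PicoPure and 7.89 ± 0.81 with RNeasy. It was above background on 1 of 3 direct lysates, 3 of 3 PicoPure oocytes and 2 of 3 RNeasy oocytes. Its difference from purified RNA, -1.70 ± 0.38 (SE), thus rests in part on values that were not above background, and it did not pass (limma, adjusted p = 0.1). The median difference of the 21 genes between direct lysis and purified RNA was -0.04, against 0.00 for all genes, and 6 of the 21 had an unadjusted p under 0.05, where 14.2% of all genes did. Among the 6 were Taf2 and Gtf2a2, and Gtf2a2 was above background on 0 arrays. The count and the median thus rest in part on values that were not above background. In the other comparisons 5 of 21 had an unadjusted p under 0.05 (limma) between PicoPure and RNeasy (7.98% of all genes). There were 5 of 21 between direct lysis and PicoPure (12.3%) and 2 of 21 between direct lysis and RNeasy (13.4%).

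**Figure D3:**
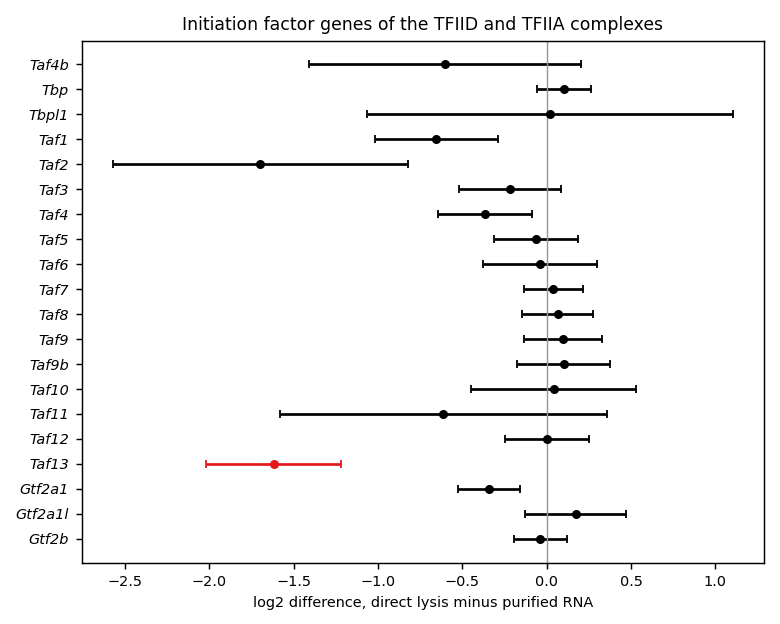
Log2 difference between direct lysis and purified RNA (horizontal axis) for Taf4b and the 19 initiation factor genes of the list that were above background on at least 1 array, with 95% intervals. Red marks the gene that passed the test over all genes, Taf13 at -1.62. Taf2, above background on 1 of 3 direct lysates, has a wider interval.

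The E proteins that pair with FIGLA and the SOHLH factors, the Id proteins and the cofactors of LIM proteins showed no change that passed. Of these 13 genes 8 were above background on all arrays and 3 (Id2, Id3 and Ldb2) on none, against 43.1% and 35.1% of all genes. The 8 took in the E protein genes Tcf3, Tcf4 and Tcf12 and the cofactor gene Ldb1. Tcf12 had 9.19 ± 0.55 in direct lysates, 10.06 ± 0.37 with PicoPure and 9.19 ± 0.70 with RNeasy (SD, n = 3 each). Tcf3 had 8.41 ± 0.14 in direct lysates, 8.24 ± 0.05 with PicoPure and 8.22 ± 0.17 with RNeasy. Ldb1, which joins LIM domain proteins, had 11.81 ± 0.10 in direct lysates, 11.78 ± 0.10 with PicoPure and 11.24 ± 0.33 with RNeasy, where replicate 3 was lowest at 10.87. Lmo1, a LIM-only gene, had 9.76 ± 0.14 in direct lysates, 10.13 ± 0.29 with PicoPure and 10.20 ± 0.16 with RNeasy. The adjusted p among preparations was 0.24 for Ldb1 and 0.39 for Lmo1, and 0 of 13 passed in any comparison (limma), where 1.01% of all genes passed between direct lysis and purified RNA. At an unadjusted p under 0.05 there was 1 of 13 between direct lysis and purified RNA (14.2% of all genes). There were 2 of 13 between PicoPure and RNeasy (7.98%), between direct lysis and PicoPure (12.3%) and between direct lysis and RNeasy (13.4%).

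Of 10 measured relatives of Lhx8 in the LIM homeodomain family, 4 (Lhx2, Lhx4, Lhx6 and Lmx1b) were above background on all arrays, 4 on some and 2 (Lhx1 and Lhx5) on none. The shares of all genes were 43.1%, 21.8% and 35.1%. Lhx2, known for its work in the forebrain, eye and hair follicle, rose in direct lysates, the only 1 of the 10 to pass, where 0.341% of all genes rose and 0.667% fell. It had 8.58, 8.51 and 8.54 in the direct lysates, against 7.85, 7.95 and 8.14 with PicoPure and 8.02, 7.91 and 7.91 with RNeasy. Background was 7.19 to 7.48 over the arrays, so the purified oocytes lay closer to it than the direct lysates. The direct lysates lay above all purified oocytes, a separation shown in either direction by 8.02% of all genes, and the difference was 0.58 ± 0.07 (SE), 1.49-fold (limma, adjusted p = 0.0188). The call was lost in 4 of 15 alternatives, namely without RNeasy replicate 1 (adjusted p = 0.055), RNeasy replicate 2 (0.0524) or PicoPure replicate 2 (0.057), and with the replicate numbers as a block (0.0737), while the difference stayed between 0.55 and 0.64. Lhx2 also passed against PicoPure and against RNeasy singly (adjusted p = 0.0386 and 0.0408), and both calls were lost with any 1 oocyte other than PicoPure replicate 3 left out and with the block, with adjusted p-values up to 0.157 and 0.125. The median difference of the family was 0.18, against 0.00 for all genes, and 5 of 10 members had an unadjusted p under 0.05, where 14.2% of all genes did. These were Lhx2, Lhx3 (0.29), Lhx6 (0.19), Lhx5 and Lhx9, of which Lhx5 was above background on 0 arrays and Lhx9 on 1. The count and the median thus rest in part on values that were not above background. Lhx4 differed by 0.12 and Lmx1b by -0.03. Over all arrays Lhx4 ran from 7.34 to 7.68, Lhx6 from 7.72 to 8.21 and Lmx1b from 7.88 to 8.01, not far above background. Apart from Lhx2 none passed with adjustment over all genes. Lhx8 itself differed by 0.09 ± 0.08 (SE). In the other comparisons 0 of the 10 had an unadjusted p under 0.05 (limma) between PicoPure and RNeasy (7.98% of all genes). There were 4 of 10 between direct lysis and PicoPure (12.3%) and 4 of 10 between direct lysis and RNeasy (13.4%).

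The genes that depend on the factors in the growing mouse oocyte were all detected. The list held the zona genes (Zp1, Zp2, Zp3), the growth factor genes Gdf9, Bmp15 and Fgf8, Mos, Pou5f1, Rfpl4, Zar1, Nlrp14, Padi6, the oocyte linker histone gene H1f8 (H1foo), Oosp1, the receptor gene Kit and Gpr149. All 16 were above background on all 9 arrays, where 43.1% of all genes were. They were gathered for their expression in oocytes, so the count is a description. Of the 9 with a promoter sequence in the RefSeq table, 8 held an E-box in the 250 bases before a start, as did 66.2% of all promoters. Zp3, which FIGLA activates through an E-box, held 3, of which the CACGTG lay 181 bases before the start. None of the 16 passed in any comparison (limma), where 1.01% of all genes did between direct lysis and purified RNA. In that comparison 5 of 16 had an unadjusted p under 0.05, against 14.2% of all genes. There were 2 of 16 between PicoPure and RNeasy (7.98% of all genes), 4 between direct lysis and PicoPure (12.3%) and 3 between direct lysis and RNeasy (13.4%). The smallest p among preparations belonged to Zp1, with 12.36 ± 0.06 in direct lysates, 12.18 ± 0.06 with PicoPure and 12.05 ± 0.04 with RNeasy (SD, n = 3 each; adjusted p = 0.164). Oosp1, an oocyte-secreted protein gene, had 12.45 ± 0.12 in direct lysates, 12.68 ± 0.0022 with PicoPure and 12.75 ± 0.02 with RNeasy. Rfpl4 had 12.44 ± 0.21 in direct lysates, 12.68 ± 0.02 with PicoPure and 12.69 ± 0.07 with RNeasy. Kit, the receptor through which the follicle signals to the growing oocyte, had 11.50 ± 0.02 in direct lysates, 11.55 ± 0.06 with PicoPure and 11.35 ± 0.08 with RNeasy.

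The genes whose pattern over the 9 arrays was most like that of a factor gene were found by Pearson's r among the other 8596 genes above background on all arrays, as a description of these arrays. For Nobox they were Tex9 (r = 0.96, Spearman's rho = 0.91) and Gpn1 (r = 0.94, rho = 0.87), and without the 2 oocytes farthest from the median of Nobox r was 0.79 and 0.74. For Lhx8 they were Dgkd (r = 0.97, rho = 0.90; 0.89 without the 2 farthest) and Reln (r = 0.92, rho = 0.79; 0.50 without them). For Sohlh1 they were Klc3 (r = 0.96, rho = 0.97; 0.91 without them) and Zscan20 (r = 0.92, rho = 0.90; 0.78 without them). With 9 arrays of 3 preparations, between 79 and 99 genes had an r over 0.8 with each factor gene, and the arrays share their preparation and normalization.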

How the data were processed

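Single oocytes were profiled on 9 arrays. The submitters' processing notes name GCOS, Affymetrix Expression Console and GCRMA, with neither versions nor their order. The deposited table holds log2 expression values made by the authors, 35556 rows by 9 arrays, from 2.41 to 13.90, with array medians of 7.12 to 7.24. The log2 scale was read from the values, and the centring and background step are not given in the sources used here. No scanner files were used, so how the authors' background step sets low values could not be examined. Precision is limited by the number of arrays.

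Genes were assigned to rows from the platform annotation (21789 rows with 1 gene symbol, 1621 with several, 12146 with none; 21698 matched RefSeq by Entrez identifier). Each gene was represented by its row of highest mean, and no filter or further normalization was applied. Differences were tested two-sided with limma 3.58.1 in R 4.3.3 (lmFit, eBayes) over all 9 arrays with 3 groups and adjusted by Benjamini-Hochberg over all genes. The procedure was also run on simulated data with independent normal noise. These arrays hold equal values and possibly oocytes of the same mouse, so no support is drawn from that run. The members and lists were chosen with earlier results of these data known. Named were the members, every list gene past the threshold, up to 4 genes per list with the smallest p among preparations above background on all arrays, the paralogs of Taf4b and Tbpl2, and the 2 genes most correlated with each member above background on all arrays. Alternatives were a quantile normalization, median centring, a filter and a floor at background, the replicate number as a block, all rows, other background levels and each array left out. No sequence of Taf4b is shown.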

Additional observations from a re-analysis of the deposited data

How the results depend on the processing

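In 360 combinations of 1 of 6 factor genes, a comparison and an alternative, no gene passed the threshold. Tbpl2, below background on all arrays, is left out of them. The sign differed from that of all 9 arrays in 14, none larger than 0.22 and none past the threshold. Under quantile normalization these were Nobox against purified RNA (0.0083) and Lhx8 against PicoPure (0.1842). With 1 oocyte left out at a time, direct lysis minus purified RNA ran from -0.1039 to 0.007 for Nobox and -0.3781 to 0.1135 for Sohlh2. Direct lysis minus RNeasy ran from -0.1037 to 0.118 for Nobox and -0.2171 to 0.3142 for Sohlh2. Direct lysis minus PicoPure ran from -0.0712 to 0.028 for Lhx8, -0.0572 to 0.0219 for Sohlh1 and -0.0142 to 0.191 for Figla. PicoPure minus RNeasy ran from -0.0978 to 0.6547 for Taf4b, and only leaving out PicoPure replicate 1 turned its sign. The number of factor genes above background on all arrays was 3, against 5 with the receptors' 90th percentile as the limit, 2 with their 99th, 3 with the median of all genes and 3 to 4 with 1 array left out. The median residual SD of the 7 genes was 0.203, and 0.17 to 0.213 with 1 array left out.

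The calls among all genes were less stable. For direct lysis against purified RNA 201 genes passed, 24 to 232 with 1 array left out and 25 with the replicate numbers as a block. For PicoPure against RNeasy there were 12, 0 to 15 and 0 (with 1591 genes at an unadjusted p under 0.05 without the block, limma). For direct lysis against PicoPure there were 119, 14 to 123 and 17, and 73 under quantile normalization. For direct lysis against RNeasy there were 87, 3 to 95 and 15. For any difference there were 127, 4 to 96 and 14, and 81 under quantile normalization. No label says that the replicate numbers pair arrays. Same-numbered arrays of different preparations correlated between -0.09 and 0.13 in their deviations. Of the 9 arrays 6 correlated best with an array of their own number, though fewer arrays of other preparations share a number than do not. Whether the numbers stand for a pairing was not tested. The block uses 2 of 6 residual degrees of freedom, and the median residual SD of the 7 genes was 0.215 with it. No factor gene passed with it. Factor genes close to background (Figla, Sohlh1, Sohlh2, Taf4b) have an uncertain detection call.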
